A study of Mus musculus with 12 samples.

Results

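Hepatocyte RNA of bexarotene-treated mice with a hepatic knockout of Rxra was compared with that of untreated floxed mice, to ask where the drug left each gene of the knockout relative to the normal level. The comparison rests on 6 of the 12 sequenced libraries: treated knockout libraries 1, 2 and 3 and floxed control libraries 1, 3 and 4. These are all libraries of their genotype and treatment. The comparison itself was chosen with earlier results of these data known. All mice were male C57BL/6. Floxed control mice carried the floxed allele and received no drug. Treated knockout mice lacked hepatic RXRα and were given bexarotene once a day at 100 mg/kg for 5 days. Untreated knockout controls (libraries 1, 2 and 5) served to show what the knockout alone had moved, and floxed mice on bexarotene (libraries 1, 3 and 4) entered the model for the spread between samples. The labels name neither the Cre driver nor the age of the mice, and do not state whether each sample was a different animal. The p-values therefore reflect the spread among these samples alone, and that spread may be technical.

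The Rxra gene encodes RXRα, a nuclear receptor that works by pairing with partner receptors on DNA. In hepatocytes the partners include PPARα, which drives fatty acid oxidation, CAR and PXR, which drive the enzymes that clear drugs and steroids, LXR and FXR, which sense sterols and bile acids, and also thyroid hormone and retinoic acid receptors. RXRβ and RXRγ, the products of Rxrb and Rxrg, form the same kinds of pairs. Bexarotene binds and activates all of these RXR isotypes, and raised triglycerides and low thyroid hormone are known effects of the drug in patients.

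Expression was measured as TPM, a level per transcript length and per library total. Each library's column summed to 1000000, and 9713 to 10470 genes per library reached 1 TPM. Read totals cannot be recovered from TPM, so depth is unknown. Floxed controls 1 and 3 were nearly the same, with an SD beyond counting noise of 0.0474 log2 units, and the pairs among treated knockout libraries 1, 2 and 3 by 0.0367 to 0.0689, while the other 8 pairs of libraries within a group differed by 0.148 to 0.423. Libraries this close were averaged and counted as 1 sample, which left n = 2 floxed control samples, n = 3 knockout control samples and n = 1 treated knockout sample. The treated knockout therefore has no SD of its own and the model gives it the variance of the other groups. Its 3 library values are given below to show the level, not as replicates.

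The libraries carried hepatocyte markers. Summed over 19 hepatocyte identity genes, the level was 84154, 86803 and 96582 TPM in floxed controls 1, 3 and 4 and 91377, 90152 and 93378 TPM in treated knockout libraries 1, 2 and 3. The ranges overlapped and none of these genes was at 0. Floxed control 4 stood apart in blood and macrophage RNA. Its 16 macrophage markers summed to 127.4 TPM against 43.3 and 48.6 in floxed controls 1 and 3, and its 7 erythroid markers to 691.7 TPM against 213.0 and 223.1. In treated knockout libraries macrophage markers summed to 93.2 to 103.2 TPM and erythroid markers to 646.9 to 742.8 TPM, and in knockout controls to 23.9 to 49.4 and 213.5 to 413.7 TPM. Clock genes differed as well. The mean log2(TPM + 1) of 11 evening genes minus that of 5 morning genes came to -1.53, -1.51 and -2.11 for floxed controls 1, 3 and 4. The gap came to 0.118, 0.00212 and 0.0331 for treated knockout libraries 1, 2 and 3, and to 0.461, 0.31 and -2.53 for knockout controls 1, 2 and 5. The floxed controls and the treated knockout did not overlap in this gap, and any difference in sampling time cannot be told apart from drug and genotype. No macrophage marker and no clock gene was called between treated knockout and floxed control (limma; 0 of 13 macrophage and 4 of 16 clock genes had an unadjusted p under 0.05). Over all 11018 tested genes 142 were called (1.29%) and 1202 had an unadjusted p under 0.05, so lists this short may hold no call. In these bulk libraries fewer cells of a type and less RNA per cell cannot be told apart.

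**Figure D1:**
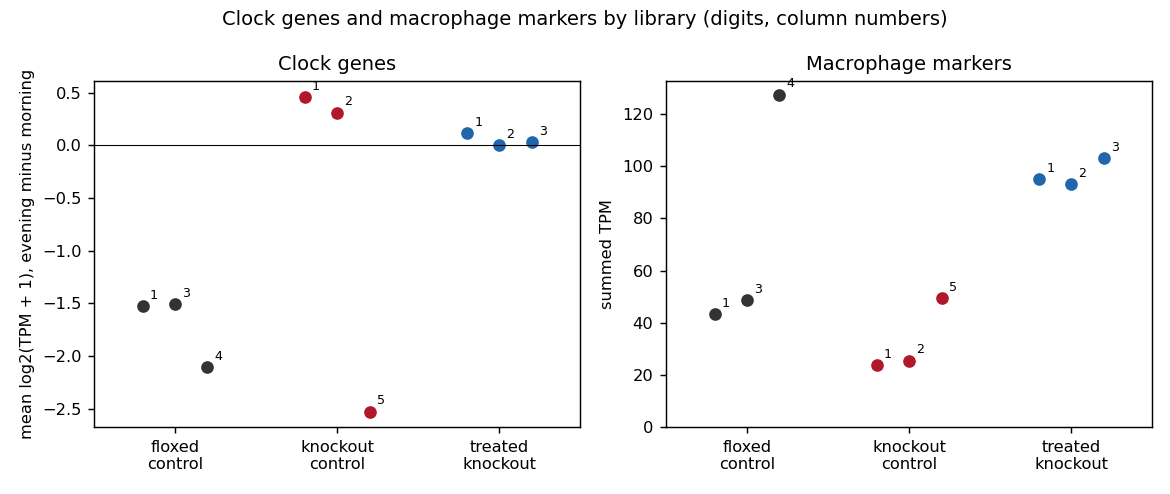
Left, the mean log2(TPM + 1) of evening minus morning clock genes in each library of floxed control, knockout control and treated knockout. Right, the summed TPM of 16 macrophage markers in the same libraries. Points are libraries with their column numbers. Floxed controls lie at -2.11 to -1.51 on the left and treated knockout libraries near 0, and floxed control 4 is highest on the right at 127.4 TPM.

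The differences used are on the log2(TPM + 1) scale. The knockout difference is knockout control minus floxed control, the treated difference is treated knockout minus floxed control, and the drug difference is treated knockout minus knockout control. They share samples, so their values are given side by side. They are not equally precise. The knockout difference rests on 3 knockout control samples, and the treated and drug differences on 1 treated knockout sample. For Rxra the SE was 0.126 for the knockout difference and 0.169 for the treated difference. Fewer calls in the treated difference, among all genes or in a list, thus do not show that genes moved back. A gene is called, or said to have risen or fallen, at an adjusted p under 0.05 (limma, Benjamini-Hochberg over 11018 tested genes).

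In treated knockout against floxed control 142 genes were called, 1.29% of those tested. Of these 94 were higher (0.853%) and 48 were lower (0.436%), and 1202 genes had an unadjusted p under 0.05. The median treated difference of all tested genes was 0.107, and with quantile normalization, which brought it to -0.00594, 107 genes were called, 54 higher and 53 lower. The knockout alone had moved 414 genes (3.76%), with 202 higher (1.83%) and 212 lower (1.92%). Of these, 261 (2.37%) had a knockout difference of at least 1 log2 unit. The drug difference was called in 57 genes (0.517%), 46 higher (0.417%) and 11 lower (0.0998%). Of the 142 genes, 88 were among the 261. A total of 8 passed the filter on low values only through the treated knockout, where they were higher, and 1 only through the floxed controls, where it was higher, so these had to differ. The number of calls depended on the treatment of the close libraries. With all 12 libraries as separate samples 1685 genes were called, and with only the floxed control and treated knockout samples in the fit 0 were (limma; 1862 at an unadjusted p under 0.05). Without floxed control 4 the count was 46, without treated floxed library 1 or 3 it was 57 and 56, without knockout control 2 it was 72, and without knockout control 5 it was 337. Without floxed controls 1 and 3 together it was 17.

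The 261 genes were sorted by where the drug left them. A gene was counted as returned when the 95% interval of its treated difference lay within 1 log2 unit of the floxed level and the treated difference was no more than 50% of the knockout difference in size. It was counted as overshot when the treated difference was called with the opposite sign, and as left apart when it was called with the same sign. This gave 28 returned genes, 1 overshot gene and 87 genes left apart, while 145 fulfilled none of these and remained undecided. Of the 148 genes lower in the knockout, 15 returned, 1 overshot and 41 were left apart, with a median knockout difference of -1.54, a median treated difference of -1.04 and a median drug difference of 0.56. Of the 113 genes higher in the knockout, 13 returned and 46 were left apart, with medians of 1.42, 1.33 and -0.25. Over all tested genes the median drug difference was 0.098. The genes were picked by a large knockout difference, and the knockout controls also enter the drug difference. That choice alone draws the drug difference towards the floxed level. These medians and counts are therefore no measure of what the drug did. The classes are counts with no test. At their edges stood Hpx, just inside with a knockout difference of 1.01, and Unc119, just outside with -0.996, and, for the call, Ildr2 and Cyp26b1 with adjusted p-values of 0.0498 and 0.051.

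**Figure D2:**
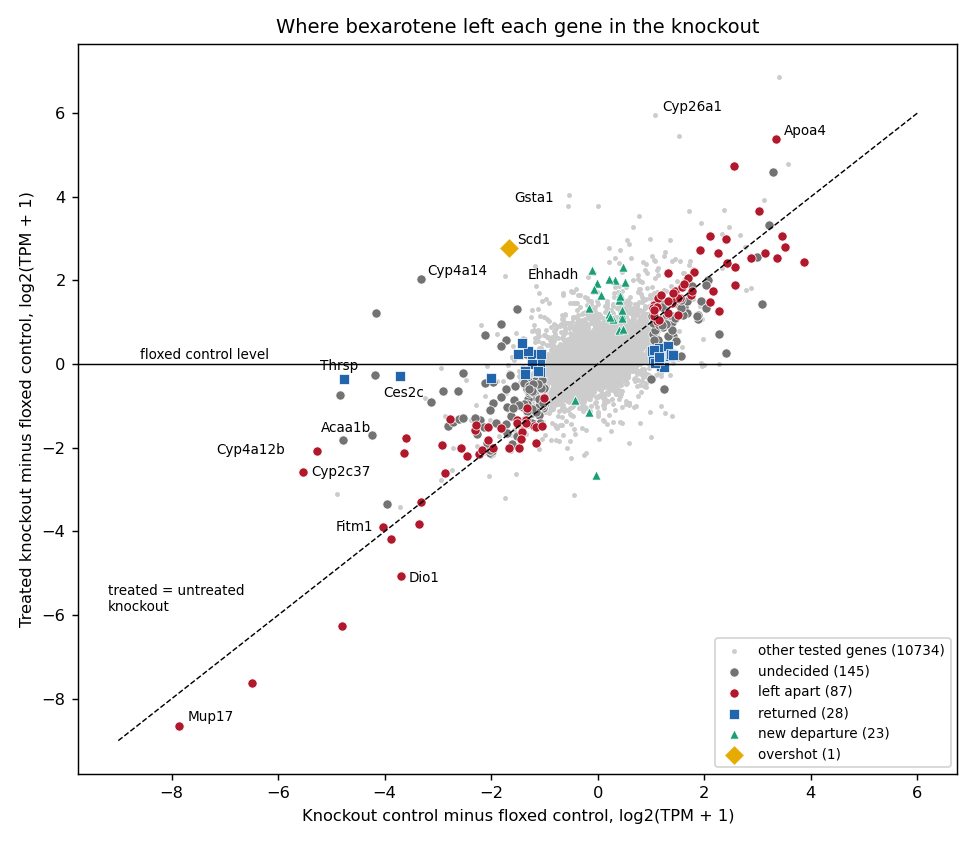
Each point is a tested gene, with its knockout difference on the x axis and its treated difference on the y axis, both in log2(TPM + 1). Genes on the horizontal line stand at the floxed control level under the drug and genes on the dashed line had no drug difference. Thrsp and Ces2c lie near the horizontal line, Scd1 lies above it, and Dio1 and Mup17 lie close to or below the dashed line.

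Rxra itself checks the labels. It stood at 79.5, 79.9 and 86.1 TPM in floxed controls 1, 3 and 4, at 31.3, 33.1 and 26.9 in knockout controls 1, 2 and 5, and at 27.8, 26.1 and 26.4 in treated knockout libraries 1, 2 and 3. All floxed control libraries were above all knockout libraries. The treated difference of Rxra was -1.59 ± 0.17 (SE, adjusted p = 0.00602), a call lost without floxed controls 1 and 3 together (adjusted p = 0.0576). Since TPM was summed over the whole gene, a transcript without the floxed exons counts like an intact one. The other isotypes were not called: Rxrb stood at 9.91 to 11.9 TPM in floxed controls and 12.3 to 14.0 in the treated knockout, and Rxrg at 1 to 1.83 and 0.8 to 1.3 TPM. Rxrb ranges did not overlap and Rxrg ranges did, with treated differences of 0.28 ± 0.27 and -0.32 ± 0.25 (adjusted p = 0.854 and 0.773).

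Of the 28 genes counted as returned, 15 had been low and 13 high in the untreated knockout. Thrsp, which encodes the Spot 14 protein of fat synthesis and responds to thyroid hormone, stood at 442, 440 and 433 TPM in floxed controls 1, 3 and 4. It stood at 13.9, 14.96 and 16.6 TPM in knockout controls 1, 2 and 5, and at 347, 331 and 347 TPM in treated knockout libraries 1, 2 and 3. The 3 groups did not overlap, and the treated knockout lay just under the floxed controls. The knockout difference of -4.77 and drug difference of 4.41 left a treated difference of -0.35 ± 0.15 (SE), with a 95% interval of -0.70 to -0.01 and an adjusted p of 0.437. Thrsp was counted as returned in 19 of 21 alternative fits.

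A pair of drug-metabolising genes followed. Ces2c, a carboxylesterase gene and a target of CAR and PXR, was at 84.0, 89.0 and 54.8 TPM in floxed controls 1, 3 and 4, at 5.23, 4.48 and 3.35 in knockout controls 1, 2 and 5, and at 57.1, 52.7 and 59.9 in treated knockout libraries 1, 2 and 3. The treated knockout overlapped the floxed controls through library 4. Cyp2c54, a cytochrome P450 of the same receptors, stood at 426, 444 and 344 TPM in floxed controls, 83.5, 81.3 and 128 in knockout controls and 307, 312 and 306 in the treated knockout. Its treated libraries stayed just below the lowest floxed control. Both had called drug differences, 3.44 for Ces2c (adjusted p = 0.0018) and 1.68 for Cyp2c54 (adjusted p = 0.0473), with treated differences of -0.28 ± 0.29 and -0.33 ± 0.29. Cyp2c54 has near-identical relatives, so its reads may be split among copies.

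Among the other returned genes the drug difference was called in few: 4 of the 28 in all. Srd5a1, whose enzyme reduces testosterone, was at 54.6 to 62.7 TPM in floxed controls, 18.9 to 32.9 in knockout controls and 63.2 to 72.5 in the treated knockout. The treated knockout did not overlap the floxed controls and lay just above them. Ces2e, another carboxylesterase gene, stood at 111 to 123 TPM, 34.9 to 67.0 and 117 to 123 TPM in the same order, so that floxed and treated libraries overlapped. Spata2l stood at 11.7 to 18.3, 5.38 to 7.23 and 15.5 to 16.6 TPM, with the treated knockout inside the floxed range. Of genes high in the knockout, Hp, the haemoglobin-binding acute phase protein haptoglobin, was at 2768 to 3372 TPM in floxed controls, 6178 to 10091 in knockout controls and 3532 to 3760 in the treated knockout. Sik1, a kinase that restrains the glucagon response, was at 1.88 to 2.96, 5.48 to 7.93 and 2 to 2.79 TPM. In the treated knockout Hp stood just above the floxed range and Sik1 within it. The drug differences of Srd5a1, Ces2e, Spata2l, Hp and Sik1 were not called. They were 1.49, 1.25, 1.27, -1.14 and -1.22 (adjusted p = 0.0719, 0.171, 0.096, 0.176 and 0.103). Without floxed control 4 only 7 genes were counted as returned, 6 of them among the 28, and of the 8 genes named here Thrsp alone was still counted. Thrsp was also the only one of the 8 to keep that class in each of the 12 fits that left out 1 library, and without knockout control 5 the count was 93.

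Scd1, the desaturase that makes oleate from stearate and a gene of both the lipogenesis and the LXR lists, was the 1 gene to overshoot. It stood at 917, 935 and 1072 TPM in floxed controls 1, 3 and 4, at 259, 241 and 489 in knockout controls 1, 2 and 5, and at 6801, 6738 and 6814 in treated knockout libraries 1, 2 and 3. The groups did not overlap, and the order was knockout control, floxed control, treated knockout. The knockout difference was -1.67 and the drug difference 4.43 (adjusted p = 0.0396 and 0.00499), and the treated difference was 2.77 ± 0.47 (adjusted p = 0.0367). That call was lost without floxed control 4 (adjusted p = 0.144), treated floxed library 1 (0.072) or 3 (0.069) or knockout control 2 (0.0584). It was also lost without floxed controls 1 and 3 together (0.184), with quantile normalization (0.063) and with no filter on low values (0.0506). The overshot class was lost in these fits and without knockout control 1. Some genes past the floxed level by their values stayed undecided. Cyp4a14 and Cyp4a10, fatty acid hydroxylase genes that PPARα controls, fell by 3.32 and 4.16 in the knockout and had treated differences of 2.03 ± 0.64 and 1.23 ± 0.57 (adjusted p = 0.245 and 0.499). Cyp4a14 stood at 28.9, 28.4 and 8.78 TPM in floxed controls 1, 3 and 4 and 70.2, 67.5 and 67.8 in the treated knockout. Its treated libraries exceeded all floxed controls, and the floxed controls differed widely among themselves.

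**Figure D3:**
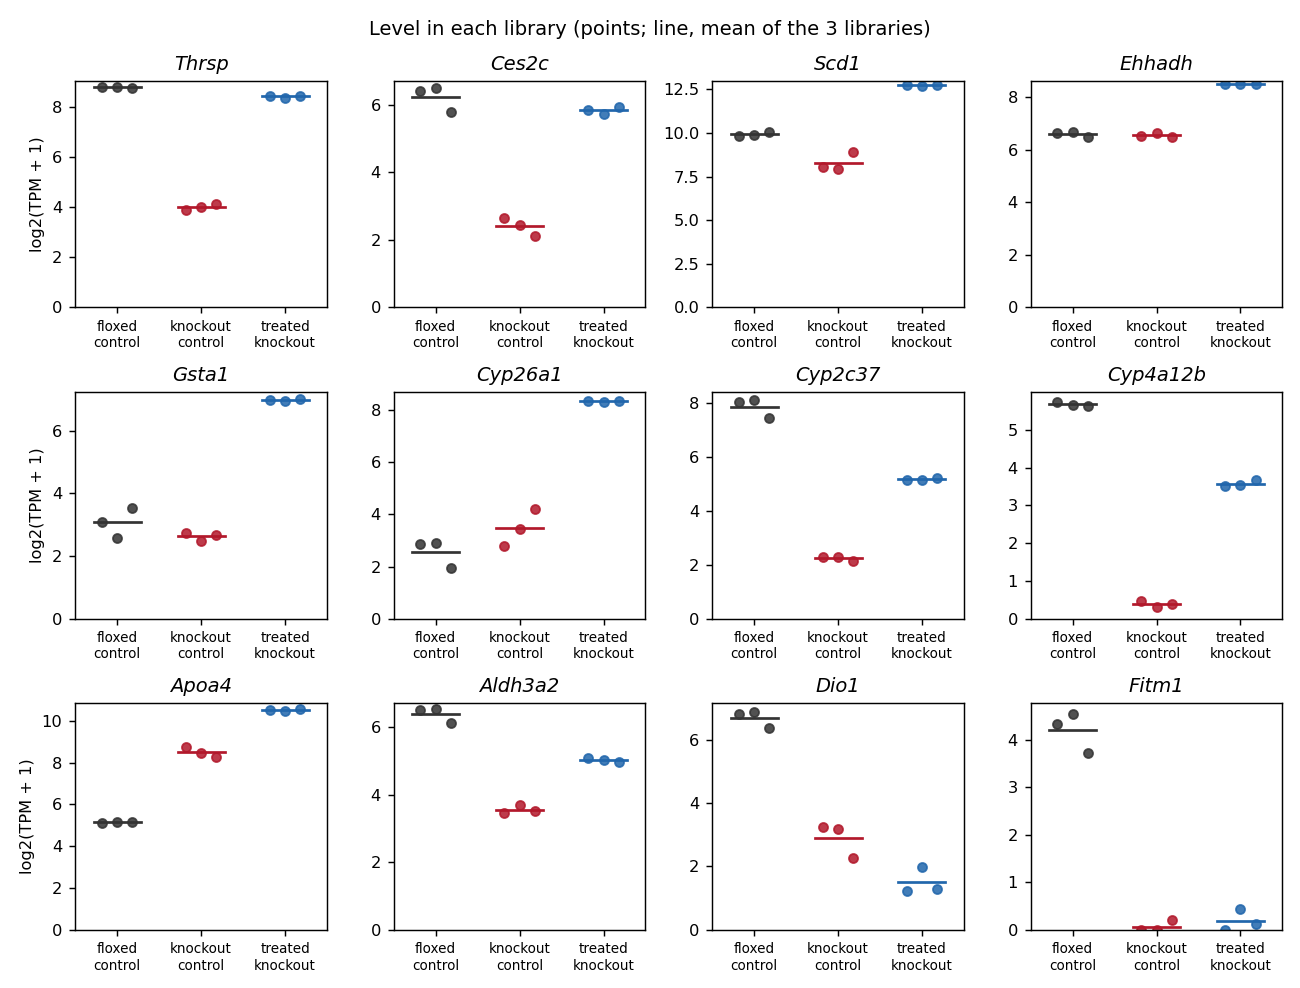
The level of 12 genes in each library, as log2(TPM + 1), in floxed control, knockout control and treated knockout. Points are libraries and lines the mean of 3 libraries. Thrsp and Ces2c return to near the floxed level, Scd1, Ehhadh, Gsta1 and Cyp26a1 rise above it, Cyp2c37, Cyp4a12b and Aldh3a2 come back in part, and Apoa4, Dio1 and Fitm1 stay apart.

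Of the 87 genes left apart, 41 remained low and 46 remained high, with median treated differences of -1.89 and 1.74. The drug difference was called in 6 of them, and 5 of these 6 moved towards the floxed level. Cyp2c37, a P450 of the CAR and PXR list, stood at 267, 276 and 173 TPM in floxed controls 1, 3 and 4, at 3.88, 3.89 and 3.44 in knockout controls 1, 2 and 5, and at 34.6, 34.5 and 36.7 in treated knockout libraries 1, 2 and 3. Its treated libraries lay between the other groups with no overlap, with a drug difference of 2.94 (adjusted p = 0.0018) and a treated difference of -2.59 ± 0.24 (adjusted p = 0.00484). Cyp4a12b, an arachidonic acid hydroxylase gene more active in males, stood at 51.9, 49.6 and 48.3 TPM, 0.39, 0.23 and 0.31 TPM, and 10.4, 10.5 and 11.7 TPM in the same order. It too lay between with no overlap, with a drug difference of 3.18 and a treated difference of -2.09 ± 0.20 (adjusted p = 0.00485). Aldh3a2, a fatty aldehyde dehydrogenase gene, and Ddah1, whose enzyme degrades dimethylarginine, also rose with the drug, by 1.47 and 1.51, and stayed 1.30 ± 0.20 and 2.14 ± 0.25 below the floxed level (adjusted p = 0.0282 and 0.00854). The Cyp4a12b and Ddah1 calls were lost without floxed controls 1 and 3 together (adjusted p = 0.051 and 0.0806), and that of Aldh3a2 without these (0.139) or without treated floxed library 1 (0.072) or 3 (0.0682).

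Dio1, Fitm1 and Lpl were low without a called drug difference. Dio1, the deiodinase that activates thyroid hormone, stood at 111, 116 and 80.9 TPM in floxed controls 1, 3 and 4, at 8.45, 8.08 and 3.77 in knockout controls 1, 2 and 5, and at 1.32, 2.96 and 1.44 in treated knockout libraries 1, 2 and 3. The groups did not overlap and the treated knockout was lowest, at a treated difference of -5.06 ± 0.70 (adjusted p = 0.0179) and a drug difference of -1.35 (adjusted p = 0.611). Fitm1, a lipid droplet gene, stood at 19.2, 22.4 and 12.3 TPM in floxed controls and at 0 to 0.36 TPM in every knockout library with or without the drug, a treated difference of -3.89 ± 0.30 (adjusted p = 0.00199). Both sets of knockout libraries lay far under the floxed controls. Lpl, the lipase that clears triglyceride from blood, stood at 4.16 to 5.37 TPM in floxed controls and 0.28 to 0.32 in the treated knockout (treated difference -2.20 ± 0.26, adjusted p = 0.00889). The Dio1 call was lost without floxed control 4 (adjusted p = 0.0746) and without floxed controls 1 and 3 (0.112), and that of Lpl likewise (0.0543 and 0.0619). With a pseudocount of 0.1 the treated differences of Fitm1 and Lpl were -6.03 and -3.67.

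The urinary protein genes held the largest called falls. Mup17 stood at 3899, 4036 and 1697 TPM in floxed controls 1, 3 and 4, at 6.74, 12.4 and 12.5 in knockout controls 1, 2 and 5, and at 4.44, 5.27 and 6.8 in treated knockout libraries 1, 2 and 3. Mup17, Mup19 and Mup15 had treated differences of -8.64 ± 0.74, -7.62 ± 0.74 and -6.27 ± 0.67 (adjusted p = 0.00296, 0.00485 and 0.00602), and Mup8 of -3.29 ± 0.47 (adjusted p = 0.0202). Mup21 went the other way, from 268 to 286 TPM in floxed controls to 1264 to 1440 in the treated knockout (2.32 ± 0.35, adjusted p = 0.0269). The Mup genes are near-identical copies, so these values may reflect how reads were split among them. Cyp2c40 and Cyp2c69, from another family of close copies, had treated differences of -2.61 ± 0.48 and -3.83 ± 0.48 (adjusted p = 0.0477 and 0.0117). Gas6, the ligand of the Axl and Mer receptors, stood at 5.75 to 10.2 TPM in floxed controls and 0.71 to 1.17 in the treated knockout (-2.16 ± 0.31, adjusted p = 0.0217). None of these libraries overlapped between floxed control and treated knockout. The largest rises and falls were named only where libraries did not overlap, so this was fixed by the choice. Of all 142 called genes, 1 had overlapping libraries. Without floxed control 4 the calls of Mup21, Cyp2c40, Cyp2c69 and Gas6 were lost (adjusted p = 0.136, 0.174, 0.0591 and 0.0759), and without floxed controls 1 and 3 those of Mup15, Mup8, Mup21, Cyp2c40 and Cyp2c69 (0.0587, 0.109, 0.139, 0.226 and 0.0858). Cyp2c40 was also lost without knockout control 1 or 2 (0.0632 and 0.094), treated floxed library 1 or 3 (0.072 and 0.074) or treated knockout library 3 (0.0502), Mup21 without treated floxed library 1 (0.0643), and Gas6 without treated floxed library 3 (0.0515). The Cyp2c40 call was lost with no filter on low values (0.07), a pseudocount of 0.1 (0.052) or eBayes without a trend (0.0559), and with that pseudocount the treated difference of Cyp2c69 was -6.05.

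Among genes that stayed high, Apoa4, an apolipoprotein of triglyceride-rich particles, stood at 33.9, 34.3 and 34.9 TPM in floxed controls 1, 3 and 4, at 431, 352 and 308 in knockout controls 1, 2 and 5, and at 1470, 1418 and 1522 in treated knockout libraries 1, 2 and 3. The groups did not overlap and the treated knockout was highest, with a knockout difference of 3.35 and a treated difference of 5.37 ± 0.46 (adjusted p = 0.00296). The drug difference of 2.03 was not called (adjusted p = 0.119). Aqp4, a water channel, stood at 0.23 to 0.33 TPM in floxed controls, 7.49 to 13.9 in knockout controls and 14.7 to 15.7 in the treated knockout. Eif4ebp3, a brake on translation, stood at 35.1 to 64.1, 205 to 243 and 286 to 296 TPM, and Rasgrp2, an activator of Rap proteins, at 6.52 to 9.27, 41.5 to 48.4 and 56.9 to 72.3 TPM. In all of these the treated libraries lay above both other groups, with treated differences of 3.65 ± 0.39, 2.64 ± 0.30 and 2.99 ± 0.18 (adjusted p = 0.00602, 0.00854 and 0.00121). Asns, the asparagine synthetase gene and a target of ATF4, stood at 3.21 to 3.85 TPM in floxed controls, 30.7 to 56.0 in knockout controls and 27.4 to 28.1 in the treated knockout (2.64 ± 0.47, adjusted p = 0.0455). Nat8f7 had the most negative drug difference of the named genes left high, with levels of 0.11 to 0.58, 16.1 to 21.4 and 5.26 to 7.23 TPM, though that difference of -1.41 was not called (adjusted p = 0.0685). The Asns call was lost without floxed control 4 (adjusted p = 0.174), floxed controls 1 and 3 (0.206), treated floxed library 3 (0.0742) or 4 (0.0637) or knockout control 1 (0.0558) or 2 (0.0697). Those of Aqp4 and Nat8f7 were lost without floxed controls 1 and 3 (0.0607 and 0.0584). Asns was also lost with a pseudocount of 0.1 (0.138), no filter on low values (0.0605), quantile normalization (0.0599) or eBayes without a trend (0.0508), and that pseudocount moved the treated difference of Nat8f7 from 2.45 to 3.88.

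Some genes stood apart from the floxed level in the treated knockout while the untreated knockout stood near it. In 23 genes the treated difference was called while the knockout difference was not and had a 95% interval within 1 log2 unit of 0, and 20 of the 23 were higher. The drug difference was called in 11 of them, and among those named here it was not called for Lhpp and Aldh16a1. Ehhadh, the bifunctional enzyme of peroxisomal fatty acid oxidation and a PPARα target, stood at 98.9, 101 and 89.6 TPM in floxed controls 1, 3 and 4, at 92.4, 98.8 and 89.9 in knockout controls 1, 2 and 5, and at 365, 362 and 367 in treated knockout libraries 1, 2 and 3. Untreated knockout and floxed libraries overlapped throughout, and the treated knockout stood above both, at 1.94 ± 0.15 (adjusted p = 0.00199). Gsta2 and Gstt3, glutathione transferase genes, and Akr1b7, an aldo-keto reductase gene, were higher by 2.01 ± 0.16, 2.04 ± 0.26 and 2.25 ± 0.23 (adjusted p = 0.00199, 0.0127 and 0.00596). Lpin1, whose product makes diacylglycerol for fat synthesis, stood at 45.4 to 60.03 TPM in floxed controls, 66.1 to 85.6 in knockout controls and 262 to 265 in the treated knockout (2.31 ± 0.25, adjusted p = 0.00617). Rrm2, a subunit of ribonucleotide reductase, the phosphatase genes Dusp14 and Lhpp, and Aldh16a1 were also called, with treated differences of 1.33 ± 0.24, 1.66 ± 0.27, 1.20 ± 0.21 and 1.62 ± 0.27 (adjusted p = 0.0436, 0.0329, 0.0402 and 0.0351). Aldh16a1 rested on 1 library, with 133, 39.5 and 55.0 TPM in treated knockout libraries 1, 2 and 3, and was lost without library 1 (adjusted p = 0.182). Rrm2, Dusp14, Lhpp and Aldh16a1 were lost without floxed control 4 (0.143, 0.163, 0.19 and 0.159), as was Gstt3 (0.0756), and Lpin1 without floxed controls 1 and 3 (0.0601). The calls of Rrm2, Dusp14, Lhpp and Aldh16a1 were also lost without treated floxed library 1 or 3 and with quantile normalization (adjusted p between 0.0519 and 0.0913). Without floxed controls 1 and 3 they were lost too (0.223, 0.14, 0.139 and 0.0858), as was Gstt3 (0.0858). Rrm2, Dusp14 and Lhpp were lost without knockout control 2 (0.0625, 0.0628 and 0.0588), and Dusp14, Lhpp and Aldh16a1 without treated floxed library 4 (0.0521, 0.0517 and 0.056). With a pseudocount of 0.1 the call and class of Akr1b7 were lost (0.0569), at a treated difference of 3.99, and the calls of Dusp14 and Rrm2 were lost as well (0.0565 and 0.052). Dusp14 was lost with a filter of 5 TPM (0.0994) and Lhpp with eBayes without a trend (0.051).

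The largest called rises of named genes above the floxed level were in a gene of retinoid breakdown and a gene for a G-protein regulator. Cyp26a1, the P450 that degrades retinoic acid and is itself induced by it, stood at 6.29, 6.51 and 2.8 TPM in floxed controls 1, 3 and 4, at 5.82, 9.99 and 17.3 in knockout controls 1, 2 and 5, and at 330, 322 and 325 in treated knockout libraries 1, 2 and 3. Floxed and knockout controls overlapped and the treated knockout stood far above both, at a drug difference of 4.88 (adjusted p = 0.00868) and a treated difference of 5.94 ± 0.57 (adjusted p = 0.00485). This call held in each of the 12 fits that left out 1 library. Those without a knockout control or treated floxed library could change only its spread. The call was lost with only the floxed control and treated knockout samples in the fit. Rarb, the gene of retinoic acid receptor β, another classical target of retinoic acid, stood at 0.17 to 0.28 TPM in floxed controls, 0.71 to 1.65 in knockout controls and 3.13 to 3.43 in the treated knockout. Its groups did not overlap, at a treated difference of 1.80 ± 0.33 (adjusted p = 0.0477), a call lost without floxed control 4 (0.18), floxed controls 1 and 3 (0.215), treated floxed library 1 (0.0977) or 3 (0.0847) or knockout control 2 (0.063), and with a pseudocount of 0.1 (0.0589), where the difference was 3.34.

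The promoters of Cyp26a1 and Rarb are shown because both genes are known for retinoic acid response elements, direct repeats of a half-site spaced by 5 bases that RXR binds together with a retinoic acid receptor. They run from 250 bases before to 50 bases after the RefSeq start, in build GRCm38.p6, at chr19:37697558-37697857 on the plus strand and chr14:16575427-16575726 on the minus strand. Capitals mark the repeat found in each.
Cyp26a1: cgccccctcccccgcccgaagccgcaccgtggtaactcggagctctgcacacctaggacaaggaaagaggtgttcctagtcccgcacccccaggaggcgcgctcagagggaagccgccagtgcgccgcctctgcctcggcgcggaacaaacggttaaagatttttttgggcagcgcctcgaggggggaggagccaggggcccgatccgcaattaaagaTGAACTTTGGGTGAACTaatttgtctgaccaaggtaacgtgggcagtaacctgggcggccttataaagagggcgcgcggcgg
Rarb: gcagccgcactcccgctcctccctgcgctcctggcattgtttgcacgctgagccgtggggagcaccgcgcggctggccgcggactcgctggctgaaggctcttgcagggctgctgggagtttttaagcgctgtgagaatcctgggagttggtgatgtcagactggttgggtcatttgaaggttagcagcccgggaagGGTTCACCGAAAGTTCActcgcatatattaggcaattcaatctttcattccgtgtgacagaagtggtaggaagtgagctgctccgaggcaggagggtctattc
The search took as half-site AGGTCA (the consensus), a variant GGGTCA (in neither of these repeats), the form AGTTCA (in both repeats) or the form GGTTCA (in that of Rarb), with both half-sites in the same direction with 5 bases between them, on either strand. In Cyp26a1 the repeat spans bases -32 to -16 from the start and reads on the strand opposite to the gene, and in Rarb it spans bases -53 to -37 on the strand of the gene. Such a repeat occurred in 32 of 32851 RefSeq promoters (0.0974%) and in 4 of the 7968 tested genes with an entry (0.0502%). Of the 142 called genes 99 had an entry, and 2 of these, Cyp26a1 and Rarb, held it. Both genes were chosen for their known elements and the search included the half-site forms of these, so the 2 matches were fixed in advance. The count is no measure of an excess of such repeats among called genes. Repeats with spacings of 1 to 4 bases were found in none of the 99, in 0.0126% to 0.339% of the tested genes with an entry and in 0.0396% to 0.268% of all promoters. At such shares 99 genes would mostly hold none, so their absence says nothing about the called genes. A match describes the letters of the window and shows no binding.

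Rgs16, which shortens G-protein signals, stood at 0.9, 0.92 and 7.93 TPM in floxed controls 1, 3 and 4, at 6.9, 8.68 and 20.9 in knockout controls 1, 2 and 5, and at 171, 175 and 189 in treated knockout libraries 1, 2 and 3. The treated knockout lay above every other library, although floxed control 4 was well above floxed controls 1 and 3. Its treated difference of 5.44 ± 0.89 (adjusted p = 0.033) lost its call without floxed controls 1 and 3 (0.0989), treated floxed library 1 (0.072) or 3 (0.0693) or knockout control 2 (0.063), and with a pseudocount of 0.1 (0.0522). Gsta1, a glutathione transferase gene of the CAR and PXR and the NRF2 lists, stood at 7.54, 5.01 and 10.6 TPM in floxed controls, 4.56 to 5.62 in knockout controls and 126, 123 and 127 in the treated knockout. Its treated libraries stood far above both untreated groups (3.78 ± 0.29, adjusted p = 0.00199; drug difference 4.35, adjusted p = 0.000539). Mgst2, a microsomal transferase gene, was listed at 0 in all floxed controls and stood at 0.28, 0.75 and 0.49 TPM in knockout controls 1, 2 and 5 and at 4.9, 6.46 and 7.63 in treated knockout libraries 1, 2 and 3. It passed the filter on low values only through the treated knockout, so its test is not given. Igfbp1, a secreted inhibitor of insulin-like growth factors, was not called despite high values. It stood at 59.7, 62.1 and 142 TPM in floxed controls 1, 3 and 4 and 921, 896 and 915 in the treated knockout, but knockout controls 1, 2 and 5 stood at 51.7, 64.7 and 939 TPM (treated difference 3.28 ± 1.46, adjusted p = 0.475). Knockout control 5 alone reached the treated level.

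By pathway, of 45 tested PPARα targets 1 was called higher than floxed control, Ehhadh, and 4 lower. Over all tested genes 0.853% were called higher and 0.436% lower, and at these shares a list of this length may hold 1 call or none. The median treated difference of the PPARα targets was 0.09 against 0.11 over all tested genes. In the untreated knockout 10 of the 45 were lower and none higher (1.92% and 1.83% of all tested genes), with a median of -0.42. The drug difference was called higher in 6 (0.417% of all tested genes). With quantile normalization the median treated difference was -0.0568. The knockout and treated counts differ in precision, so fewer lower calls under the drug do not show a return. The 4 low genes were Aldh3a2, Eci1, Decr2 and Vnn1. Decr2, a peroxisomal reductase gene, stood at 62.1 to 89.6 TPM in floxed controls, 14.0 to 15.5 in knockout controls and 24.8 to 29.0 in the treated knockout (-1.46 ± 0.22, adjusted p = 0.0255). Vnn1, the pantetheinase gene, stood at 5.81 to 8.88, 0.49 to 0.77 and 1.36 to 2.04 TPM (-1.57 ± 0.24, adjusted p = 0.0269). Both lay between the untreated groups with no overlap. Acaa1b, the peroxisomal thiolase gene, stood at 410 to 564, 10.4 to 24.5 and 127 to 139 TPM and was undecided (-1.81 ± 0.39, adjusted p = 0.0811). Decr2 and Vnn1 were lost without floxed controls 1 and 3 (adjusted p = 0.0975 and 0.14) and without treated floxed library 1 (0.0612 and 0.072) or 3 (0.0666 and 0.0629), Decr2 also without knockout control 2 (0.0509) and Vnn1 without floxed control 4 (0.0519).

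Of 41 tested CAR and PXR targets 6 were called higher and 2 lower (0.853% and 0.436% of all tested genes), with a median treated difference of 0.54. The higher ones were Gsta1, Gsta2, Akr1b7, Gstt3, Gstt1 and Aldh1a7, and the lower ones were Cyp2c37 and Ugt1a1, the bilirubin glucuronidation gene. In the untreated knockout 14 of the 41 were lower and 1 higher (median -0.29), against 1.92% and 1.83% of all tested genes. The drug difference was called higher in 12 (median 1.25), against 0.417% of all tested genes. Cyp2c29 and Cyp2b10, the P450 genes by which CAR activity is usually read, stood between these. Cyp2b10 was at 61.1, 61.2 and 53.0 TPM in floxed controls 1, 3 and 4, at 1.13, 1.37 and 5.34 in knockout controls 1, 2 and 5, and at 47.3, 45.7 and 49.8 in treated knockout libraries 1, 2 and 3. The treated libraries stood just under the floxed controls, at -0.25 ± 0.57 with a 95% interval of -1.57 to 1.06, too wide to be counted as returned. Cyp2c29 stood at 2079 to 2204 TPM, 69.0 to 87.1 and 1253 to 1307 TPM in the same order, at -0.75 ± 0.18 (adjusted p = 0.11). Quantile normalization left 5 members called higher and 2 lower. Here too the knockout and treated counts differ in precision.

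**Figure D4:**
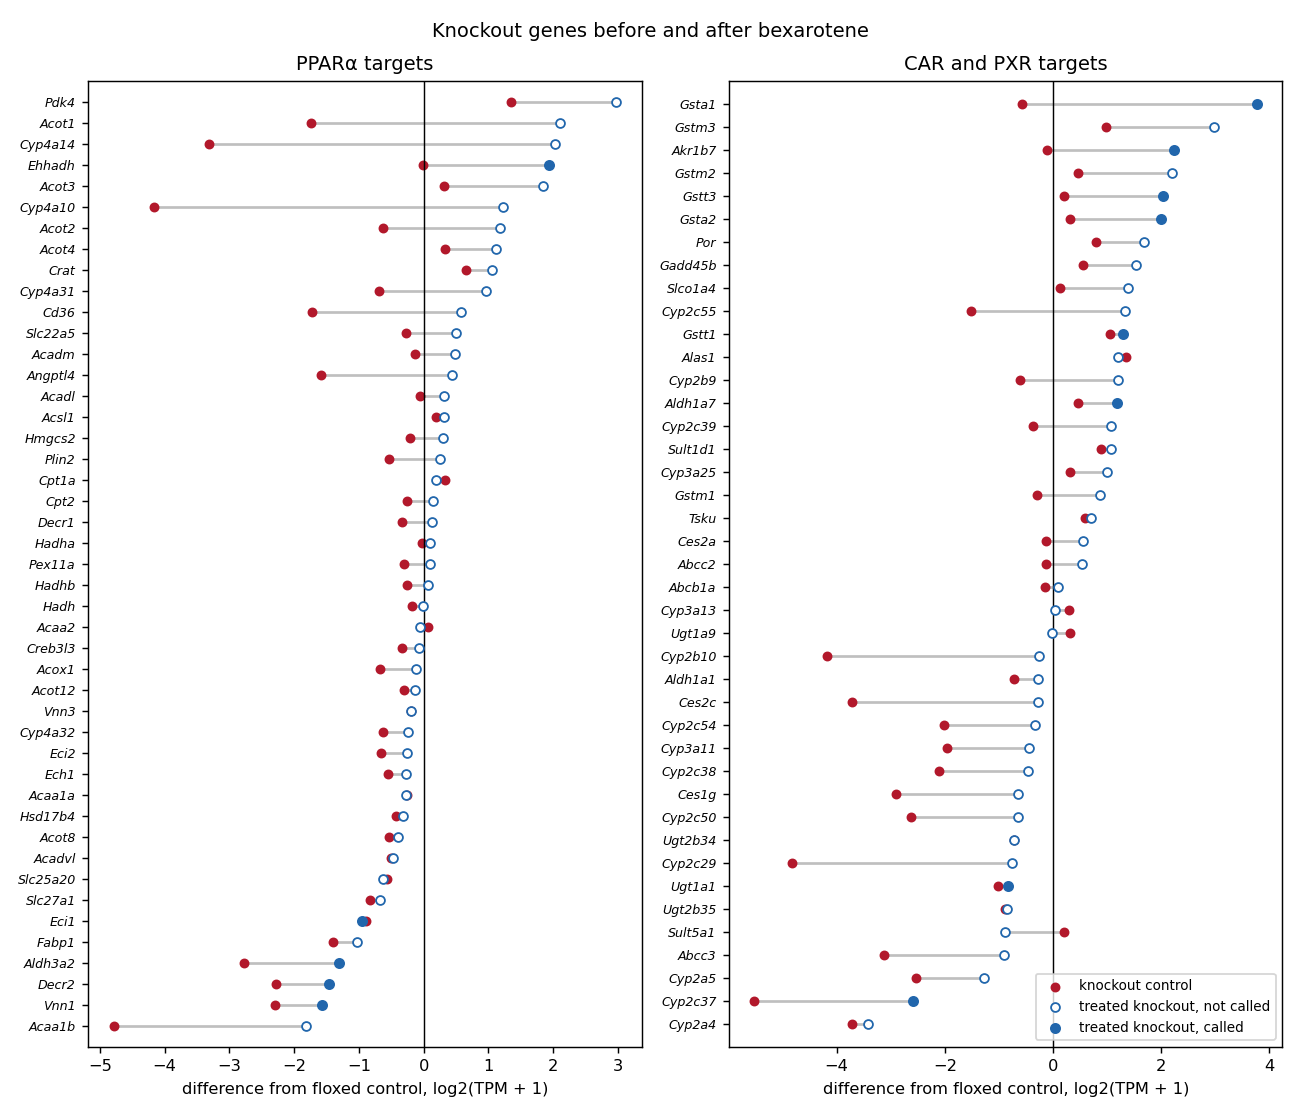
Difference from floxed control, in log2(TPM + 1), of each tested PPARα target (left) and each tested CAR and PXR target (right). Red points are the knockout control, blue points the treated knockout, filled where its difference was called, and the vertical line is the floxed control level. The red points of Cyp4a10, Cyp2b10 and Ces2c lie far left of the line, and their blue points lie near it or past it.

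Of 27 tested lipogenesis genes 3 were called higher, Scd1, Lpin1 and Acaca, and none lower (0.853% and 0.436% of all tested genes). The median treated difference was 0.62 against 0.11 over all tested genes, while 4 had been lower in the untreated knockout (median -0.19, 1.92% of all tested genes). Acaca, the acetyl-CoA carboxylase gene, stood at 7.96, 8.2 and 14.8 TPM in floxed controls 1, 3 and 4, 18.4 to 20.7 in knockout controls and 46.6, 49.2 and 47.9 in treated knockout libraries. The groups did not overlap (2.03 ± 0.30, adjusted p = 0.0246). Its call was lost without floxed controls 1 and 3 (0.0653), treated floxed library 1 (0.0522) or 3 (0.0629) or knockout control 2 (0.0509). Of 25 apolipoprotein and triglyceride clearance genes 3 were called higher, Apoa4, Apoc3 and Tm6sf2, and 1 lower, Lpl, with a median of 0.28. Apoc3, an inhibitor of triglyceride clearance, stood at 3765 to 4140 TPM in floxed controls, 6501 to 8446 in knockout controls and 8204 to 8646 in the treated knockout (1.10 ± 0.20, adjusted p = 0.0471). Tm6sf2, a gene of lipoprotein secretion, stood at 10.4 to 16.9, 26.4 to 33.7 and 34.3 to 39.4 TPM (1.37 ± 0.25, adjusted p = 0.0479). The knockout controls were already above the floxed controls in both, and both were lost with quantile normalization (0.197 and 0.0785). Apoc3 was lost without floxed control 4 (0.205) and Tm6sf2 without floxed control 1 (0.0539), both without floxed controls 1 and 3 (0.184 and 0.182), any treated floxed library (0.0702 to 0.106) or knockout control 2 (0.0784 and 0.0713), and Tm6sf2 also without knockout control 1 (0.0568) or treated knockout library 1 (0.0558). Both were lost with a pseudocount of 0.1 (0.052 and 0.0553) or eBayes without a trend (0.0616 and 0.0598), and Apoc3 with no filter on low values (0.0639).

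**Figure D5:**
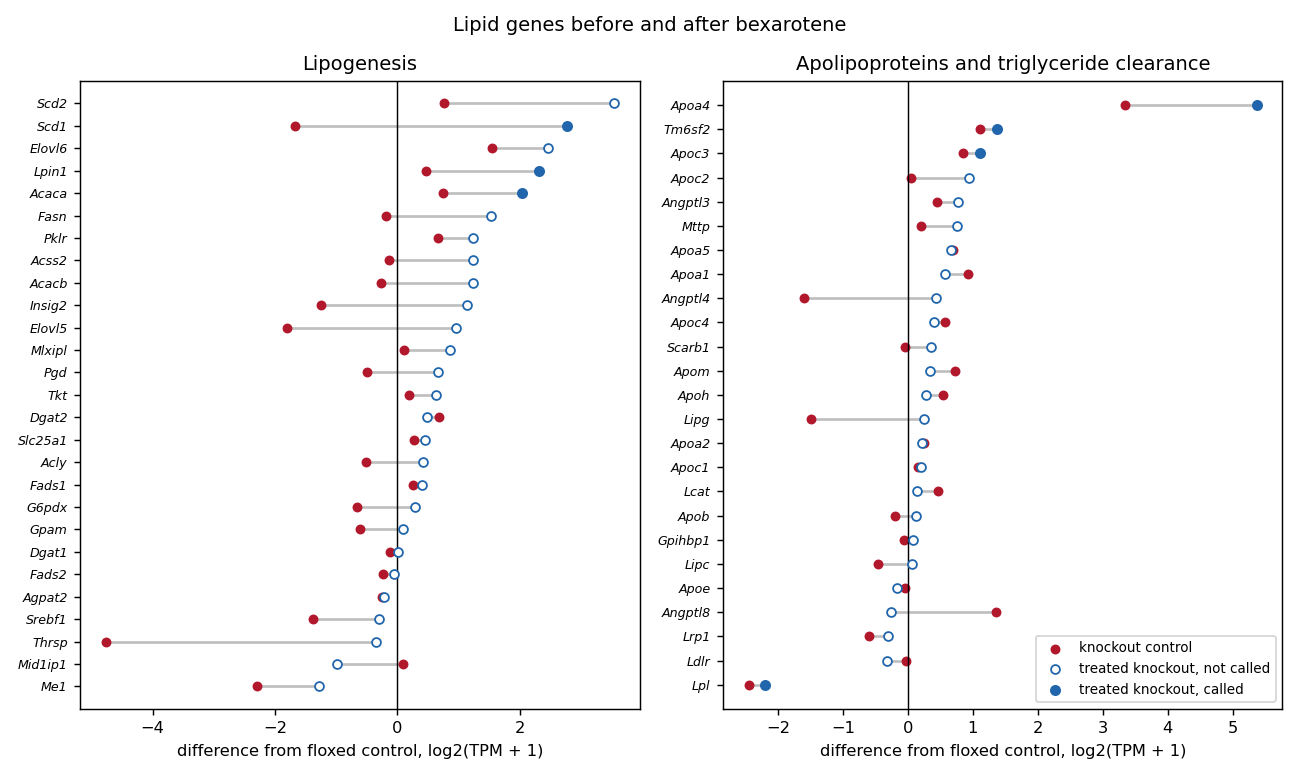
Difference from floxed control, in log2(TPM + 1), of each tested lipogenesis gene (left) and each tested gene of apolipoproteins and triglyceride clearance (right). Red points are the knockout control and blue points the treated knockout, filled where its difference was called. Scd1 and Thrsp start left of the floxed level and end above and just below it, and Apoa4 moves further right.

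Among sterol genes, the 26 tested genes of cholesterol synthesis and uptake had a median treated difference of 0.74 and a median knockout difference of 0.52. Abcg8, one chain of the LXR-controlled sterol exporter, stood at 13.9 to 16.4 TPM in floxed controls, 24.1 to 30.0 in knockout controls and 42.6 to 44.3 in the treated knockout (1.47 ± 0.19, adjusted p = 0.0126). Its groups did not overlap. The Abcg8 call was lost without floxed control 4 (adjusted p = 0.0762) and without floxed controls 1 and 3 (0.0695). Of 13 LXR targets 2 were called higher, Scd1 and Abcg8, and 1 lower, Lpl (0.853% and 0.436% of all tested genes). None of 12 FXR-induced genes and none of 23 genes of bile acid synthesis and transport was called (limma; 4 and 3 had an unadjusted p under 0.05), with medians of 0.03 and 0.04, which quantile normalization moved to -0.097 and -0.0624. With 1.29% of all tested genes called, and 1202 of 11018 at an unadjusted p under 0.05, lists this short may hold no call.

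Of 29 tested acute phase genes 9 were called higher in the knockout (median 0.57), 2 were called higher in the treated knockout (median 0.20), and the drug difference was called lower in 2 (median -0.41). The shares of all tested genes were 1.83%, 0.853% and 0.0998% in the same order. The treated count comes from the less precise difference, so it does not show a return by itself. The pair that stayed high was Lcn2, the iron-scavenging lipocalin, and Orm2, an orosomucoid. Orm2 stood at 59.1 to 64.6 TPM in floxed controls, 309 to 486 in knockout controls and 226 to 237 in the treated knockout, between the others with no overlap (1.88 ± 0.25, adjusted p = 0.016). Lcn2 stood at 18.6 to 33.8, 195 to 562 and 217 to 222 TPM, the last within the knockout range (3.05 ± 0.57, adjusted p = 0.0479). Orm2 was lost without floxed control 4 (0.0967) or floxed controls 1 and 3 (0.0971). Lcn2 was lost without floxed control 4 (0.125), floxed controls 1 and 3 (0.233), any treated floxed library (0.0822 to 0.1) or knockout control 1 or 2 (0.0558 and 0.0591), and with quantile normalization (0.0675), a pseudocount of 0.1 (0.0522), no filter on low values (0.0732) or eBayes without a trend (0.057). Neutrophils also carry Lcn2. Their 11 markers summed to 18.5 to 57.7 TPM in floxed controls and 8.6 to 10.7 TPM in the treated knockout, and their part in the Lcn2 values was not tested. Among 36 complement and coagulation genes 1 was called, against 1.29% of all tested genes. It was C6, a terminal complement component, at 89.4 to 106, 269 to 296 and 221 to 224 TPM (1.18 ± 0.16, adjusted p = 0.0172, lost without treated floxed library 3 with 0.052 and without floxed controls 1 and 3 with 0.11).

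Other groups held few calls, and over all tested genes 0.853% were called higher and 0.436% lower. At these shares a single call in a short list is no result about that list. Of 13 thyroid hormone responsive genes 1 was called lower, Dio1, and none higher, although Thrsp, on the same list, returned. Of 20 NRF2 targets 2 were called higher, Gsta1 and Gsta2. The 23 tested genes of glucose metabolism had a median treated difference of 0.51. Of 29 cell cycle genes 1 was called higher, Rrm2 (median 0.29). None of 51 genes of amino acid catabolism and the urea cycle and none of 13 mitochondrially encoded genes was called (limma; 17 and 0 had an unadjusted p under 0.05), with medians of 0.36 and -0.03. Over all 11018 tested genes 142 were called (1.29%) and 1202 had an unadjusted p under 0.05. Lists this short may thus hold no call, and the absence of calls does not show that they were unmoved. Of 24 male-biased genes 2 were called higher, Mup21 and C6, and 1 lower, Cyp4a12b, and of 8 tested female-biased genes 1 was called lower, Cyp2c40. The median treated difference was -0.04 for the male-biased and 1.22 for the female-biased genes. By value, called or not, 5 of the 8 female-biased genes stood higher and 3 lower. One erythroid gene was called, Alas2, the first enzyme of haem synthesis in red cells, at 65.7 to 82.4 TPM in floxed controls and 152 to 159 in the treated knockout (adjusted p = 0.0442). Alas2 already stood at 183.2, 159.6 and 158.1 TPM in knockout controls 1, 2 and 5, and it was among the genes left apart. Its drug difference was not called. Summed erythroid markers of floxed control 4 lay within the treated knockout range while its Alas2 level did not. The part of blood RNA in the Alas2 values was not tested. The Alas2 call was lost without floxed control 4 (adjusted p = 0.103), floxed controls 1 and 3 (0.215), any treated floxed library (0.0623 to 0.102) or knockout control 2 (0.0806).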

How the data were processed

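Hepatocyte RNA was prepared with TRIzol and a DNase I step, and a stranded mRNA kit was used for the libraries, per the labels' protocols. Reads went through fastp, HISAT2 and StringTie, per the submitters' processing notes, with no versions. Genome build and strand setting are not given in the sources used here. TPM values were deposited by the authors for 26748 gene identifiers, and 21810 of these matched a symbol. Because column numbers do not follow the numbers in the titles, each column was given a group but no individual sample.

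The spread of each pair of libraries in a group was taken over genes from 10 TPM upwards. These were split into 20 classes of TPM times mean transcript length (GENCODE), which stands in for the unknown read number. The spread beyond counting noise is the part left when the variance was fitted on the inverse of this product. Libraries whose log2 spread beyond counting noise was under 0.1 were averaged. The 11018 genes (10490 with a symbol) that reached 1 TPM in 3 or more libraries were modelled on log2(TPM + 1) in all 4 groups together, using limma 3.58.1 (R 4.3.3; trended eBayes, 5 residual and 3.22 prior degrees of freedom). Differences of very low genes are understated on this scale. Benjamini-Hochberg adjustment ran over every tested gene. The model was tested on simulated data. The simulated samples had independent noise and, for each gene, the same spread in every group. The simulation therefore could not check the variance lent to the treated knockout.

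The comparison, its members and the 36 gene lists were chosen with earlier results of these data known. Named genes were the RXR genes, the 12 largest called rises and the 12 largest called falls (at least 5 TPM, libraries not overlapping), up to 8 per class with the largest differences, and up to 4 called members of each list with the smallest adjusted p, or else 2 of the highest TPM. Not all of these are printed, and some genes are not reported here. Eci1, Ugt1a1, Gstt1, Aldh1a7 and the genes at the edges of the classes were named after their values were seen. Genes without a symbol or with a predicted name are only counted. Near-identical genes (Mup, Cyp2c, Cyp4a, Gsta) are uncertain, since their reads may be divided between copies. Alternatives were the separate treatment of all libraries, a replicate block, other filters, pseudocounts and scalings, and leaving out each library.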

Additional observations from a re-analysis of the deposited data

How the results depend on the processing

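The number of calls depended on how the close libraries were treated. In the order of treated knockout against floxed control, knockout control against floxed control, treated knockout against knockout control, returned, overshot, left apart and newly departed genes, the report gives 142, 414, 57, 28, 1, 87 and 23. With 12 separate libraries these were 1685, 1302, 1105, 56, 10, 266 and 833, and with the replicate block added 1876, 1438, 1744, 132, 31, 349 and 874. The numbers were not taken to pair the samples. Over the 11 same-numbered pairs of libraries from 2 groups, deviations from the group means correlated across genes at -0.18 to 0.143. Floxed control and treated knockout gave 0.031 (number 1) and -0.0395 (number 3), and floxed control and treated floxed 0.0361, 0.00529 and 0.143 (numbers 1, 3 and 4). With only the groups compared in the fit, which leaves fewer samples for the spread, they were 0, 158, 6, 16, 0, 0 and 0. With no filter on low values, which adds genes near 0 TPM, they were 979, 231, 875, 12, 0, 77 and 810. Without both floxed controls 1 and 3 they were 17, 100, 35, 7, 0, 10 and 3. Leaving out 1 library at a time gave 46 to 337, 101 to 761, 22 to 249, 7 to 93, 0 to 4, 31 to 145 and 7 to 98. Newly departed genes numbered 13 with a pseudocount of 0.1 and 15 with quantile normalization, which left 0 overshot genes. The cause of these shifts was not tested. Quantile normalization moved the median treated difference from 0.107 to -0.00594 and the share of calls that were higher from 66.2% to 50.5%. A pseudocount of 0.1 gave 60 higher and 42 lower, a filter of 5 TPM 86 and 37, and eBayes without a trend 74 and 46. Over 96 named genes and 21 alternatives, the treated difference kept its side of the threshold in 1754 cases, lost the call in 217 and gained it in 38, with 0 reversals. The 0 reversals are no measure of how firm the directions are. Leaving out a knockout control or treated floxed library changes the spread but cannot change the treated difference. Leaving out 1 of the close treated knockout libraries hardly can. With 1 treated knockout sample and 2 floxed control samples the spread is borrowed from the other groups, and without read totals no precision can be given for low values.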
